A study of Mus musculus with 6 samples.

Results

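The genes described here are 6 STAT transcription factors, Stat2, Stat3, Stat4, Stat5a, Stat5b and Stat6, and 3 Janus kinases, Jak1, Jak2 and Tyk2. They were taken by gene name, 9 of 54532 genes in the deposited tables, and each name had 1 row. All samples were cultured phagocytes, macrophages that the sample labels derive from the bone marrow of C57BL/6 mice. In one group Cxcr4 had been targeted with a small interfering RNA, or siRNA (siCXCR4), and the other had a negative-control siRNA (siNC). All cells of both groups had then been given lipopolysaccharide (LPS), a bacterial cell-wall component, at 100 ng/ml for 12 hours, so no unstimulated cells stand beside them. The labels name 3 samples per group, but the table of siNC replicate 3 repeated siNC replicate 2 as read counts, equal in all 19072 genes with reads, so 3 siCXCR4 libraries and 2 siNC libraries were compared.

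Janus kinases are tyrosine kinases bound to the inner tails of cytokine receptors. When a cytokine joins its receptor chains, the kinases phosphorylate the chains and then the STAT proteins that dock there, and paired STATs move into the nucleus and bind DNA. In macrophages LPS induces interferon-beta and interleukin-10, which act back on the same cells through this pathway. Interferon-beta acts through Jak1 and Tyk2 to form ISGF3, a complex that contains STAT2, and interleukin-10 acts through Jak1 and Tyk2 to activate STAT3. STAT proteins are switched on by phosphorylation, which was not measured here; the values below are mRNA levels only.

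Libraries held 18890751 to 21780840 reads in genes. Values are FPKM, reads divided by gene length and by the depth of the library, given as mean ± SD with n = 3 for siCXCR4 and n = 2 for siNC. The macrophage markers Adgre1, Csf1r, Fcgr1 and Cd68 were at 200.5 to 549 FPKM in every library. The 12 T and NK cell markers summed to 3.17 to 3.9 FPKM in siCXCR4 and 2.99 to 3.20 FPKM in siNC, mostly from Cd4, Lck and Klrb1c, with 3 reads of Cd3e over all 5 libraries. The 6 dendritic cell markers summed to 4.72 to 5.49 FPKM in siCXCR4 and 5.17 FPKM in both siNC libraries, and the 6 fibroblast and endothelial markers to 1.83 to 2.03 FPKM in siCXCR4 and 1.86 to 2.22 FPKM in siNC. The 8 neutrophil markers summed to 84.2 to 99.6 FPKM in siCXCR4 and 105 to 109 FPKM in siNC. S100a9 was at 37.7 to 46.2 FPKM in siCXCR4 and 52.4 to 52.9 FPKM in siNC, and S100a8 at 10.7 to 13.3 FPKM in siCXCR4 and 15.3 to 18.2 FPKM in siNC. Ngp, Camp and Ltf overlapped between the groups, with Ngp at 27.4 to 34.5 FPKM in siCXCR4 and 29.2 to 29.8 FPKM in siNC, and Ly6g, Elane and Mpo had 3, 4 and 13 reads over all libraries. Their part in the results below was not tested. In bulk RNA, fewer cells of a type and less RNA per cell cannot be told apart. The siRNA target itself was at 31.1, 36.2 and 32.7 FPKM in siCXCR4 replicates 1 to 3, against 41.3 and 42.1 FPKM in siNC replicates 1 and 2. Over the whole set of genes this did not reach the threshold (log2 fold change -0.32, SE 0.0704, adjusted p = 0.457 by limma). The adjusted p of Cxcr4 was 0.0637 by edgeR, and 0.00104 by edgeR without siCXCR4 replicate 2, with a log2 fold change of -0.40. Separate animals or cultures are not mentioned for the replicates, so the spread behind each p-value may be technical.

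Promoters, the 250 bases before and 50 after a gene's start, are shown for Stat2 and Stat4, because these were the most and the least abundant of the 9 genes and theirs were the promoters with a motif match. Sequences are from RefSeq (build GRCm38.p6, 5′ to 3′ on the gene's strand), which held 12 promoters for the 9 genes. Searched on both strands were TTCNNNGAA, the gamma-activated site that most STAT dimers bind, the same TTC and GAA with 4 bases between them, the wider spacing that STAT6 prefers, and GAAA followed after 2 bases by GAAA, the core of the interferon-stimulated response element bound by ISGF3 and by interferon regulatory factors. The first pair of patterns reads the same on both strands. Capitals mark the matches, at chr10:128270248-128270547 (plus strand) for Stat2 and at chr1:52007990-52008289 (plus strand), the second of a pair of starts, for Stat4.
Stat2: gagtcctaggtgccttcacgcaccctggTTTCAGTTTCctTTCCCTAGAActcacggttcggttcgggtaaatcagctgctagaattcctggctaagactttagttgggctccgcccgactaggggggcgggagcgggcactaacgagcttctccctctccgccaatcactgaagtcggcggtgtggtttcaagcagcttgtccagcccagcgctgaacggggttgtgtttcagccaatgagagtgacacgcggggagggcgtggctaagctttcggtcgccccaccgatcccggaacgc
Stat4: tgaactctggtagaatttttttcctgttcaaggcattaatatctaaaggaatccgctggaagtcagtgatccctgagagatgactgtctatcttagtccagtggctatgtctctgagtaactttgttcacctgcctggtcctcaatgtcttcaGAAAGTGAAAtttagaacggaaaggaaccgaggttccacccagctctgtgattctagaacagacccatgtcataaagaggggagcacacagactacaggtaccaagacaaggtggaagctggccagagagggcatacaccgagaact
In Stat2 a response-element core (TTTCAGTTTC, the reverse strand form) begins at position -222 from the start and a site of the wider spacing (TTCCCTAGAA) at -210, and these do not overlap. In Stat4 the core (GAAAGTGAAA) begins at -97. The other 10 promoters, those of Stat3, Stat5a, Stat5b, Stat6, Jak1, Jak2 and Tyk2 and the other start of Stat4, held none of the 3 patterns. Among all 32851 promoters of the same length, 8.30% hold TTCNNNGAA, 6.95% the wider spacing and 3.44% the response-element core. A match is a description of letters and not a measured binding site.

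The 9 genes kept the same order of level in every library. Per kilobase of gene length it ran Stat2, Jak2, Jak1, Stat3, Stat6, Tyk2, Stat5b, Stat5a and Stat4. Stat2, the subunit that gives ISGF3 its activating domain, stood at place 315 by mean FPKM among 23311 genes with reads. Jak2, the kinase of the interferon-gamma and GM-CSF receptors, stood at place 529 and Jak1, shared by most class II cytokine receptors, at place 765. At the other end of the expressed genes, Stat5b and Stat5a, which carry GM-CSF signals, stood at places 2863 and 3167. Ranges over the 5 libraries of neighbours in this order did not overlap, except for Stat5b (14.3 to 15.0 FPKM) and Stat5a (11.8 to 14.5 FPKM), although Stat5b was the higher of these in 5 of 5 libraries. Stat3 and Stat6 were close, with the lowest Stat3 value at 46.7 FPKM and the highest Stat6 value at 45.7 FPKM.

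**Figure D1:**
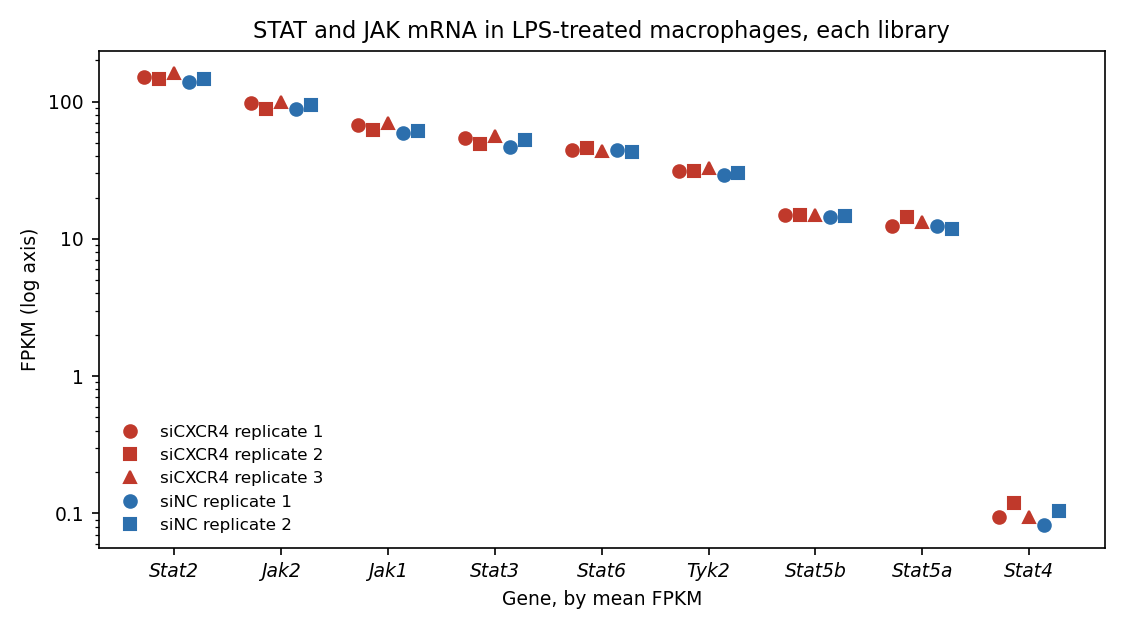
FPKM on a log axis of the 9 STAT and JAK genes in each of the 3 siCXCR4 libraries (red) and 2 siNC libraries (blue), ordered by mean level. Points of both groups lie together for each gene, from Stat2 at 139 to 161 FPKM down to Stat4 at 0.0819 to 0.120 FPKM.

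Part of that order depends on the gene length the authors divided by. For 9 of 9 genes the length in the tables equalled the union of the exons of every annotated transcript, coding or not (GENCODE M21, GRCm38). Set against the longest coding transcript, that length was 1.83 times as long for Stat5a, 1.58 times for Stat3, 1.47 times for Jak1, 1.42 times for Tyk2, 1.35 times for Stat2 and 1.06 times for Stat5b, and equal for Jak2. Counted per kilobase of the longest coding transcript, a choice made after seeing the data, Stat5a was at 22.7, 26.6 and 24.5 in siCXCR4 replicates 1 to 3 and at 22.6 and 21.6 in siNC replicates 1 and 2. Stat5b was then at 15.8, 15.9 and 15.9 in siCXCR4 and at 15.2 and 15.6 in siNC, so Stat5a was the higher in every library. Jak1 and Jak2 became level, at 86.9 to 102 for Jak1 and 87.9 to 98.6 for Jak2. Jak1 was then the higher in each siCXCR4 library and Jak2 in each siNC library. Stat2 remained highest in every library under either length. Comparisons between the siRNA groups use 1 length per gene throughout.

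**Figure D2:**
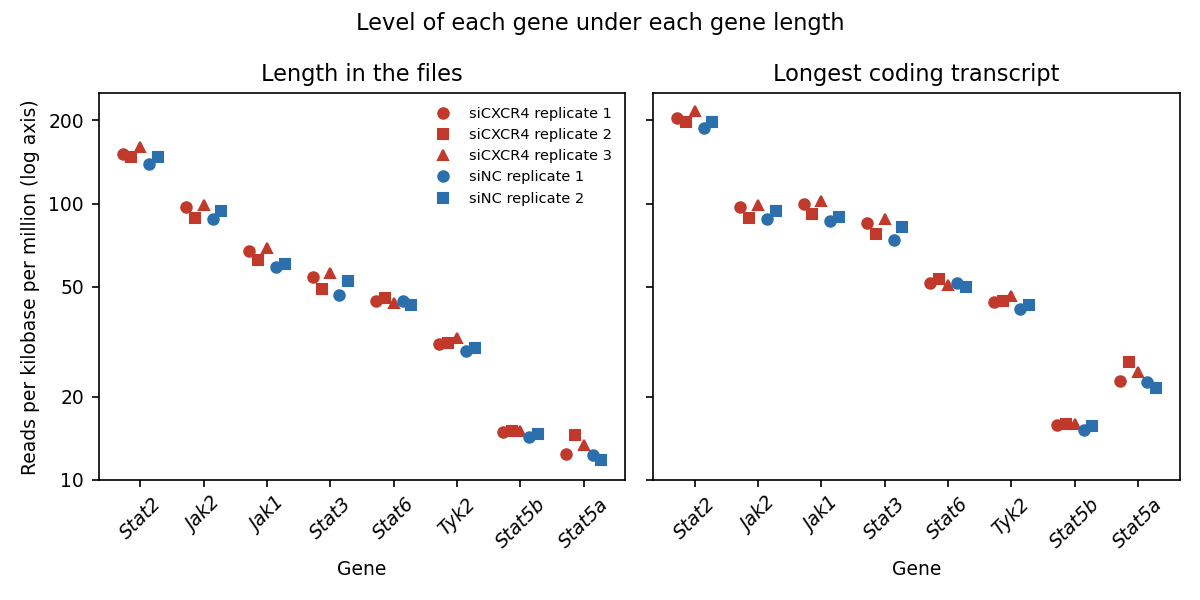
Length-normalized level (RPKM, log axis) of the 8 expressed genes in each library, with the gene length in the files (left) and with the longest coding transcript (right). The order of Stat5b and Stat5a turns round and Jak2 and Jak1 draw level, while Stat2 stays highest.

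Stat5a and Stat5b are neighbouring copies on chromosome 11 whose reads cannot be fully separated. Of the 50-base windows of the Stat5a coding sequence, 26.0% occur letter for letter in a Stat5b transcript, and 26.3% the other way. No such window was shared between any other pair of the 9 genes. The longest run they share is 324 coding bases, and the exon below lies within it, shown because reads from it fit both genes. It is exon 7 of the transcript with the longest coding sequence in both, at chr11:100874339-100874490 (plus strand) for Stat5a and at chr11:100798234-100798385 (minus strand) for Stat5b in GRCm38, 152 bases long.
Stat5a and Stat5b exon 7: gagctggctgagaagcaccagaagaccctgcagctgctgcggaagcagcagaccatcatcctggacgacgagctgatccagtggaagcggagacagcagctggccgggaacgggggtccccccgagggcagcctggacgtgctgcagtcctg
The handling of reads that match both genes was not given in the sources used here, and their ratio is uncertain. The 3′ end of Stat5a also overlaps that of Stat3, on the opposite strand, over 72 bases, and Stat6 overlaps Nab2 over 40 bases. Some overlaps with noncoding genes were longer, counted over whole genes with their introns. Stat4 shares 29929 bases with Gm28177 on the same strand, which had a mean of 1.8 reads per library. Tyk2 shares 24326 bases with 1700084C06Rik on the opposite strand, which had a mean of 0.2 reads. Their effect on the counts was not tested. The strand setting of the counting was not given in the sources used here either.

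The main question was whether any STAT or JAK gene differed between siCXCR4 and siNC macrophages. All 8 expressed genes had a log2 fold change above 0, between 0.03 for Stat6 and 0.15 for Jak1, and none passed the test. The pseudocount of 1 makes these fold changes smaller for genes of low level. The median of the 8 was 0.09 on the log2(FPKM + 1) scale, against 0.01 over all genes tested, where 56.4% lay above 0. By limma 0 of the 8 genes had an adjusted p under 0.05, with adjusted p from 0.530 to 0.856, and among all tested genes 0 of 9943 genes did (0.0%). At an unadjusted p under 0.05 there was 1 of the 8, Jak1, where 5.8% of all genes were higher in siCXCR4 and 3.54% lower. On whole reads worked back from the FPKM, edgeR's quasi-likelihood test called 17 of 12794 genes (0.133%), none of them a STAT or JAK gene. DESeq2 called 31 of 16067 (0.193%) and limma-voom 12 of 12794 (0.0938%), again with 0 of the 8. Without siCXCR4 replicate 2 edgeR called 312 genes, also with 0 of the 8. With edgeR's scaling the 8 genes were also above 0, with a median of 0.08 against -0.01 over all genes tested, of which 48.1% were above 0. The 8 genes were above 0 by DESeq2 as well, where 48.9% of all genes were, and by limma-voom, where 47.8% were. At an unadjusted p under 0.05 limma had 577 genes higher and 352 lower in siCXCR4, edgeR 571 higher and 674 lower, and limma on values scaled to equal totals 398 higher and 427 lower.

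**Figure D3:**
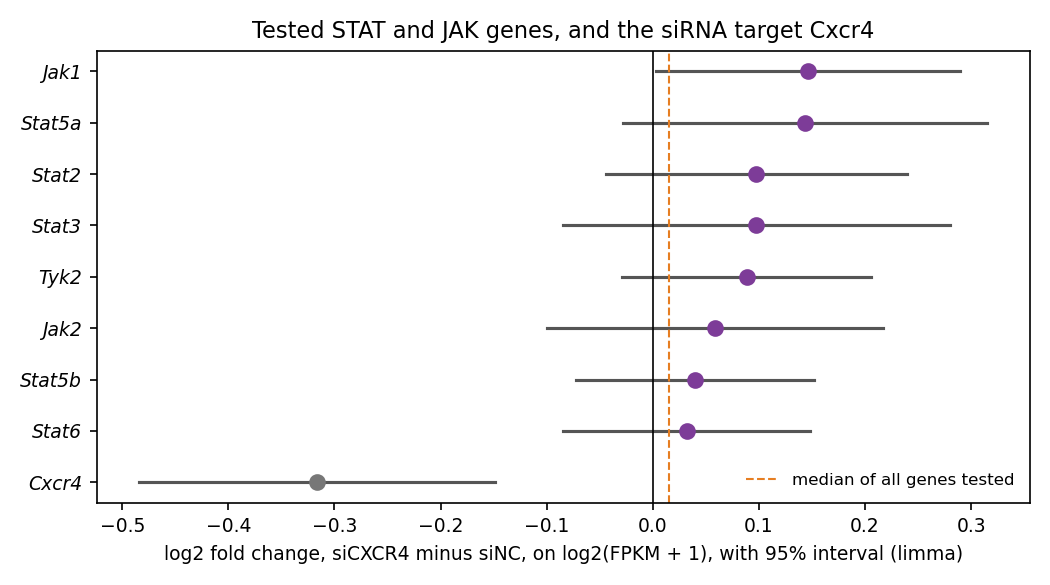
Log2 fold change of siCXCR4 over siNC on the log2(FPKM + 1) scale with its 95% interval from limma, for the 8 tested STAT and JAK genes and for Cxcr4. Intervals of all 8 but Jak1 include 0, and the Jak1 interval starts at 0.0031.

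Gene positions are those of the deposited tables, on GRCm38. Among the kinases, Jak1 (ENSMUSG00000028530, chr4:101152367-101265282, minus strand) had the lowest p. This kinase serves the receptors for interferons, interleukin-6, interleukin-10 and the common gamma chain cytokines. It was at 67.5, 62.3 and 69.3 FPKM in siCXCR4 replicates 1 to 3, against 59.0 and 60.7 FPKM in siNC replicates 1 and 2. Every siCXCR4 value lay above both siNC values, the nearest being siCXCR4 replicate 2. Jak1 averaged 66.4 ± 3.63 FPKM in siCXCR4 and 59.8 ± 1.22 FPKM in siNC, a log2 fold change of 0.15 (SE 0.0601, 95% interval 0.0031 to 0.29, adjusted p = 0.530 by limma). Jak1 had 8648 to 10630 reads in a library. With siCXCR4 replicate 2 left out, edgeR gave the lowest adjusted p of any alternative tried, 0.121.

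Tyk2 (ENSMUSG00000032175, chr9:21104068-21131243, minus strand), the kinase of the interferon-alpha/beta, interleukin-10 and interleukin-12 receptors, was at 31.0, 31.3 and 32.6 FPKM in siCXCR4 and at 29.3 and 30.1 FPKM in siNC. Its groups did not overlap either, and means of 31.7 ± 0.876 FPKM in siCXCR4 and 29.7 ± 0.579 FPKM in siNC gave a log2 fold change of 0.09 (SE 0.0491, 95% interval -0.03 to 0.21, adjusted p = 0.614). Jak2 (ENSMUSG00000024789, chr19:29251828-29313080, plus strand) was at 97.6, 88.5 and 98.6 FPKM in siCXCR4, against 87.9 and 94.2 FPKM in siNC. Here siCXCR4 replicate 2 lay between the siNC libraries, and the log2 fold change of Jak2 was 0.06 (SE 0.0664, 95% interval -0.10 to 0.22, adjusted p = 0.792). Each library moved it by more than 1.5 times: it was 0.04, 0.11 and 0.03 without siCXCR4 replicates 1, 2 and 3, and 0.01 and 0.11 without siNC replicates 1 and 2.

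Shares within a library do not depend on how it was scaled, but their size depends on the gene length used. Those below, and those of the STAT genes, use the length in the deposited tables. Per kilobase of the longest coding transcript Jak1 and Jak2 were level, at 86.9 to 102 and 87.9 to 98.6. Jak1 made up 34.4%, 34.2% and 34.6% of the summed FPKM of the 3 kinases in siCXCR4 replicates 1 to 3 and 33.5% and 32.8% in siNC. Jak2 made up 49.8%, 48.6% and 49.2% in siCXCR4 and 49.9% and 50.9% in siNC, and Tyk2 15.8% to 17.2% in siCXCR4 and 16.3% to 16.6% in siNC. Neither the Jak1 nor the Jak2 share overlapped between the groups. The difference in the Jak1 share, 1.26 percentage points, had p = 0.1 in a two-sided exact permutation test, the smallest p that 3 libraries against 2 allow, and 0.7 when adjusted over the 14 shares and ratios computed. The difference in the Jak2 share, -1.23 percentage points, had p = 0.2 in the exact permutation test and 0.9 when adjusted. The Jak1 to Jak2 ratio of FPKM was 0.692, 0.704 and 0.703 in siCXCR4 and 0.671 and 0.645 in siNC. Its p was 0.1 in the exact permutation test and 0.7 when adjusted. This ratio and both shares rest on the same Jak1 and Jak2 values, so they are not separate results.

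Stat2 (ENSMUSG00000040033, chr10:128270559-128292849, plus strand) was at 151.8, 146.9 and 160.6 FPKM in siCXCR4 replicates 1 to 3, against 138.9 and 147.0 FPKM in siNC replicates 1 and 2. The groups overlapped narrowly, since siCXCR4 replicate 2 lay just under siNC replicate 2. Stat2 averaged 153 ± 6.95 FPKM in siCXCR4 and 143 ± 5.73 FPKM in siNC, a log2 fold change of 0.10 (SE 0.0595, 95% interval -0.04 to 0.24, adjusted p = 0.635), on 16877 to 19596 reads per library. The log2 fold change was 0.06 without siNC replicate 1 or without siCXCR4 replicate 3.

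Stat3 (ENSMUSG00000004040, chr11:100885098-100939540, minus strand), which carries the interleukin-10 and interleukin-6 signals, was at 54.1, 49.1 and 56.0 FPKM in siCXCR4 and at 46.7 and 52.3 FPKM in siNC. Again siCXCR4 replicate 2 was the lowest of its group and lay below siNC replicate 2. The log2 fold change of Stat3 was 0.10 (SE 0.0766, 95% interval -0.08 to 0.28, adjusted p = 0.700), and 1 library moved it strongly, to 0.02 without siNC replicate 1 and to 0.18 without siNC replicate 2. It was 0.15 without siCXCR4 replicate 2 and 0.06 without siCXCR4 replicate 3. These values count the gene as a whole and do not separate its alpha and beta protein forms.

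Stat5a (ENSMUSG00000004043, chr11:100859351-100885169, plus strand) had another order of libraries, at 12.4, 14.5 and 13.4 FPKM in siCXCR4 and at 12.3 and 11.8 FPKM in siNC. Its highest value was in siCXCR4 replicate 2, where Stat2, Stat3, Jak1 and Jak2 were lowest of their group. Stat5a averaged 13.4 ± 1.06 FPKM in siCXCR4 and 12.0 ± 0.387 FPKM in siNC, a log2 fold change of 0.14 (SE 0.0719, 95% interval -0.03 to 0.32, adjusted p = 0.577). It was 0.09 without siCXCR4 replicate 2. Stat5b (ENSMUSG00000020919, chr11:100780731-100850724, minus strand) was the steadiest of the 9 genes, at 14.9, 15.0 and 15.0 FPKM in siCXCR4 and at 14.3 and 14.7 FPKM in siNC, with a highest value only 1.05 times the lowest. Its log2 fold change was 0.04 (SE 0.0471, 95% interval -0.07 to 0.15, adjusted p = 0.805), and 0.02 without siNC replicate 1. The ratio of Stat5a to Stat5b was 0.834, 0.968 and 0.892 in siCXCR4 and 0.860 and 0.800 in siNC, with overlapping groups.

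Stat6 (ENSMUSG00000002147, chr10:127642986-127660957, plus strand), the factor activated by interleukin-4 and interleukin-13, was at 44.3, 45.7 and 43.6 FPKM in siCXCR4 and at 44.3 and 42.8 FPKM in siNC. The groups overlapped, and the log2 fold change was 0.03 (SE 0.0487, 95% interval -0.08 to 0.15, adjusted p = 0.856). Left out in turn, siCXCR4 replicate 2, siNC replicate 1 and siNC replicate 2 gave 0.01, 0.06 and 0.01. On the fold scale that interval runs from 0.943 to 1.11 for Stat6. It runs from 0.943 to 1.21 for Stat3, the widest of the 8 on the log2 scale, from 0.981 to 1.24 for Stat5a and from 1.002 to 1.22 for Jak1.

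Within the summed FPKM of the 6 STAT genes, Stat2 made up 54.7%, 54.15% and 55.6% in siCXCR4 and 54.14% and 54.7% in siNC, so the groups overlapped. Stat3 made up 18.99% ± 0.782 in siCXCR4 and 18.8% ± 0.890 in siNC, and Stat6 15.98% ± 0.873 in siCXCR4 and 16.6% ± 0.930 in siNC.

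Stat4 (ENSMUSG00000062939, chr1:51987148-52107189, plus strand), which carries interleukin-12 signals in T cells and natural killer cells, had 8, 9 and 7 reads in siCXCR4 and 7 and 8 reads in siNC. This is 0.0949, 0.120 and 0.0944 FPKM in siCXCR4 and 0.0819 and 0.105 FPKM in siNC, under the mean of 1 FPKM needed to enter the test. Summed over libraries, siCXCR4 had 24 of 59995576 reads in genes, or 0.400 CPM, reads scaled to the library total without gene length (95% exact Poisson interval 0.256 to 0.595) and siNC had 15 of 40735890, or 0.368 CPM (0.206 to 0.607). These intervals overlapped and cover counting error only. The smallest difference that could be detected at this depth was not worked out.

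In 4 of the 8 expressed genes, Jak1, Tyk2, Stat5a and Stat5b, all siCXCR4 values of FPKM lay above both siNC values, and over all genes tested 17.9% did so. In 0 of the 8 did the groups part the other way, against 9.92% of all genes. This count depends on the scaling. Relative to reads in genes, a scaling added after the data were seen, it was 2 of 8, Jak1 and Tyk2, against 11.9% of all genes. Of the reads that FPKM divides by, 0.00033% to 1.37% lay outside the listed genes in siCXCR4 libraries and 2.15% to 2.80% in siNC libraries.

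Library by library, siCXCR4 replicate 3 lay above the mean of the 5 libraries for 7 of the 8 genes, and siNC replicate 1 below it for 7 of 8. For siCXCR4 replicate 2, 4 of the 8 genes were above that mean and 4 below, with Stat5a at 0.16 and Jak2 at -0.07 on the log2 scale. Over all genes, 52.6% were above the mean in siCXCR4 replicate 3, 55.8% in siCXCR4 replicate 2 and 47.6% in siNC replicate 1.

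**Figure D4:**
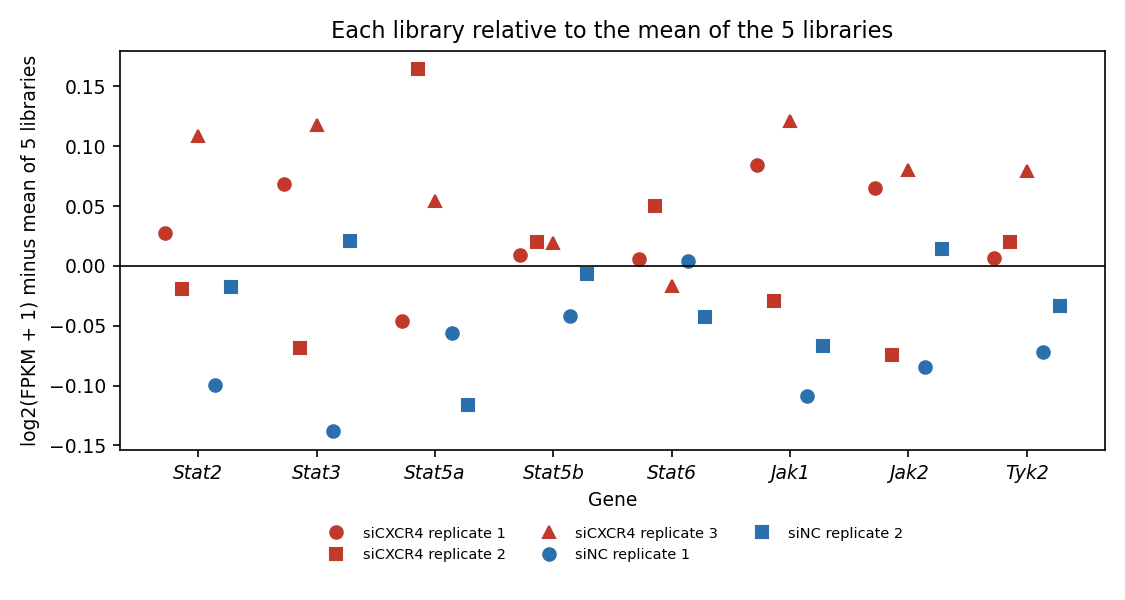
Log2(FPKM + 1) of each expressed STAT and JAK gene in each library, minus the mean of the 5 libraries. Stat2, Stat3, Jak1 and Jak2 are highest in siCXCR4 replicate 3 and lowest in siNC replicate 1, while Stat5a is highest in siCXCR4 replicate 2.

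The tested genes whose library profile was most like that of Jak1 were Plod1, Snx1 and Rufy1, with root-mean-square differences of 0.00962, 0.0106 and 0.0116 on the log2 scale over 5 libraries. For Stat5a they were Zcchc17, Fastkd2 and Fem1b, at 0.0176, 0.0202 and 0.0219. With 5 libraries and 9943 genes to choose from, such likeness is a description only.

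Around these genes, the pathway was followed from its ligands to its targets, and in each list 0 genes passed the limma test over all genes. Calls differed between tools: of the list genes named below, DESeq2 called Il12a (adjusted p = 0.0041) and Cmpk2 (adjusted p = 0.0208), which edgeR and limma-voom did not. With siCXCR4 replicate 2 left out, edgeR called 6 of them, Il12a, Cmpk2, Ccl22, Il13ra1, Usp18 and Ccnd1, with adjusted p from 2.0e-06 to 0.04997, and limma called none of these 6. Of 34 cytokines of the pathway, 10 reached 1 FPKM, 5 above and 5 below 0, with a median log2 fold change of -0.04. Il10, the anti-inflammatory cytokine that signals to STAT3, was at 24.0, 22.4 and 21.2 FPKM in siCXCR4 and at 17.1 and 19.01 FPKM in siNC (log2 fold change 0.30, SE 0.0724, adjusted p = 0.457). Il12a, the p35 subunit of interleukin-12, lay the other way at 42.0, 52.0 and 37.9 FPKM in siCXCR4 and at 65.8 and 59.6 FPKM in siNC (log2 fold change -0.51, SE 0.135, adjusted p = 0.488 by limma). Its adjusted p was 0.0041 by DESeq2, 0.294 by edgeR and 0.246 by limma-voom, and 2.0e-06 by edgeR without siCXCR4 replicate 2. Ebi3, a subunit of interleukin-27, had a log2 fold change of 0.15. Groups did not overlap for any of these 3, which were picked for their low p; over all genes 17.9% parted upward and 9.92% downward.

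Of 39 subunits of receptors that carry Janus kinases, 25 were tested, and 20 had a log2 fold change above 0, with a median of 0.05. The 3 of lowest p were Il13ra1, Crlf2 and Il2rg. Il13ra1, which joins the interleukin-4 receptor, was at 27.4 ± 1.87 FPKM in siCXCR4 and 22.5 ± 2.36 FPKM in siNC. Crlf2, a chain of the thymic stromal lymphopoietin receptor, was at 115 ± 2.23 FPKM in siCXCR4 and 104 ± 1.74 FPKM in siNC, and Il2rg, the common gamma chain, at 65.0 ± 4.07 FPKM in siCXCR4 and 57.7 ± 2.10 FPKM in siNC. These 3 of 25, picked for their low p, were higher at an unadjusted p under 0.05, as 5.8% of all genes were, with an adjusted p from 0.494 to 0.525.

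Of 19 inhibitors, 18 were tested, 14 above and 4 below 0, with a median of 0.06. Usp18, which blocks the interferon-alpha/beta receptor, was at 257 ± 11.7 FPKM in siCXCR4 and 222 ± 5.87 FPKM in siNC. Ptpn6, the phosphatase SHP-1, was at 251.1 ± 8.32 FPKM in siCXCR4 and 231 ± 2.48 FPKM in siNC. Cish, a STAT5 target that damps STAT5 signalling, was near the filter, at 1.20 ± 0.205 FPKM in siCXCR4 and 1.58 ± 0.278 FPKM in siNC. Adjusted p for these ran from 0.488 to 0.576. Of 11 partner proteins all were tested, 8 above and 3 below 0, with a median of 0.05. The lowest p there were for Stam2, an adaptor on endosomes, with a log2 fold change of 0.15, and for Ranbp9 and Nmi, both with 0.12.

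Known target genes did not all lean one way. Of 20 ISGF3 targets 15 were above 0, with a median of 0.07. By limma 6 of the 20 were higher at an unadjusted p under 0.05, against 5.8% of all genes. Targets of 1 complex may move together by library, so these 6 cannot be counted as independent, and their share was not tested. The summed FPKM of the 20 overlapped between the groups, at 9729 to 10676 in siCXCR4 and 9071 to 9756 in siNC. Cmpk2, a mitochondrial nucleotide kinase, was at 558 ± 53.5 FPKM in siCXCR4 and 437 ± 29.8 FPKM in siNC (adjusted p = 0.486 by limma and 0.0208 by DESeq2), and Ifit1, which binds viral RNA, at 685 ± 50.1 FPKM in siCXCR4 and 594 ± 28.6 FPKM in siNC, with Usp18 as above. Of 17 STAT3 targets tested 14 were above 0, with a median of 0.10. By limma 3 of the 17 were higher at an unadjusted p under 0.05, against 5.8% of all genes, and this share was not tested either. Tnip3, an inhibitor of NF-kB signalling, was at 20.5 ± 0.565 FPKM in siCXCR4 and 17.7 ± 0.396 FPKM in siNC, Junb, an AP-1 subunit, at 209 ± 7.004 FPKM in siCXCR4 and 186 ± 3.08 FPKM in siNC, and Bcl2l1, a survival factor, at 17.5 ± 1.21 FPKM in siCXCR4 and 15.4 ± 1.004 FPKM in siNC. Their adjusted p ran from 0.457 to 0.534.

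For STAT5 the 9 tested targets had a median of 0.01, close to that of all genes, with 6 above 0. By limma 2 of the 9 were higher at an unadjusted p under 0.05, against 5.8% of all genes, a share that was not tested. Ccnd1, cyclin D1, was at 3.12 ± 0.323 FPKM in siCXCR4 and 2.27 ± 0.533 FPKM in siNC (adjusted p = 0.504), and Bcl2l1 and Cish are also on that list. Of 11 tested STAT6 targets 4 were above and 7 below 0, with a median of -0.07 and none at an unadjusted p under 0.05. Ccl22, a chemokine of alternatively activated macrophages, was at 20.8 ± 3.43 FPKM in siCXCR4 and 25.5 ± 1.66 FPKM in siNC, Pparg, a lipid-sensing receptor, at 1.75 ± 0.262 FPKM in siCXCR4 and 1.39 ± 0.0529 FPKM in siNC, and Egr2, a transcription factor induced by interleukin-4, at 1.66 ± 0.215 FPKM in siCXCR4 and 1.99 ± 0.357 FPKM in siNC. Ccl22 and Egr2 overlapped between the groups. The lists share cells, libraries and some genes, and their medians were not tested against each other.

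**Figure D5:**
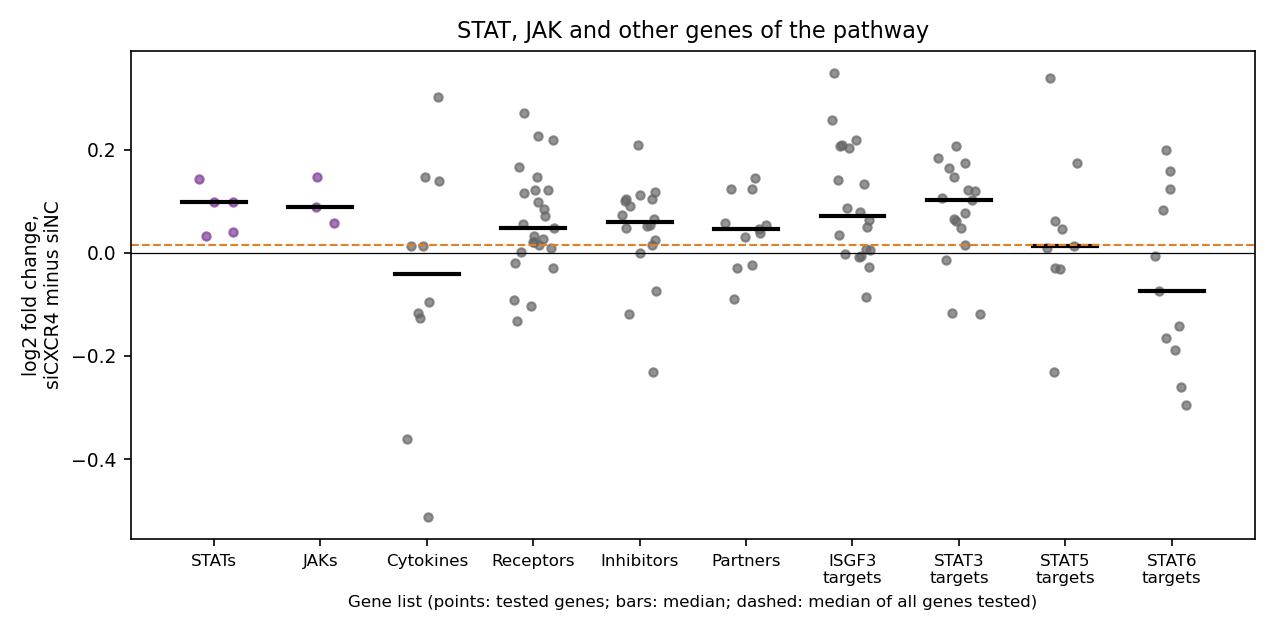
Log2 fold change of siCXCR4 over siNC for each tested gene of the STATs, the JAKs and 8 lists of other pathway genes (points), with the median of each list (bars) and of all genes tested (dashed line, 0.01). Medians run from -0.07 for STAT6 targets to 0.10 for STAT3 targets, and no gene shown passed the limma test. Of the list genes named in the text, DESeq2 called Il12a and Cmpk2.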

How the data were processed

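RNA sequencing of total RNA was deposited as 1 gene table per sample. The authors deposited FPKM in 5 tables and whole read counts in the sixth, siNC replicate 3. The file headers name no unit; it was read from the values, since multiplying each value by gene length gave, within a library, multiples of a single step in 100.0% of genes with reads (tolerance 0.05). Those whole reads of siNC replicate 2 equalled the counts of siNC replicate 3. The submitters' processing notes name build mm9, but the positions in the tables are those of GRCm38, in 98.3% of genes shared with GENCODE M21 and for 9 of 9 STAT and JAK genes. No aligner is named in the labels or headers.

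The comparison used limma 3.58.1 (trend, robust, two-sided) in R 4.3.3 on log2(FPKM + 1), over 9943 genes whose mean reached 1 FPKM, with Benjamini-Hochberg adjustment and a threshold of 0.05; of several rows of 1 symbol the one of highest mean was kept. The design was planned on 6 libraries, and 5 distinct ones remained. Alternatives on whole reads used edgeR 4.0.16, DESeq2 1.42.0 and limma-voom. The fits were run on simulated data with the same spread for every gene and no library effect other than depth. Their outcome is not given here and does not bear on how these libraries vary. All 9 genes are named; of each pathway list the 3 genes of lowest p are named where none passed. Genes and lists were chosen with earlier results of these data known. Without molecular identifiers, reads are not independent molecules. Of the marker lists, that of B cells is not reported here.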

Additional observations from a re-analysis of the deposited data

How the results depend on the processing

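Among the STAT and JAK genes 0 passed the threshold under any of 25 alternatives: 3 count tests, 3 scalings, 2 pseudocounts, 2 filters, a plain limma fit, library weights, a replicate block, the repeated sample counted as a replicate, summed rows, and each library left out with limma and with edgeR (the last added after the data were seen). Of 200 fold changes of these genes under them, 4 changed sign, all near 0: Stat6 with quantile normalization (-0.0023), with edgeR without siNC replicate 2 (-0.0057) and without siCXCR4 replicate 2 (-0.0036), and Jak2 with edgeR without siNC replicate 1 (-0.0074). The lowest and highest Jak1 values were 0.10 and 0.19. Over all genes the count past the threshold was 0 by limma, 17 by edgeR, 31 by DESeq2, 12 by limma-voom and 6 with the repeated sample as a replicate. Leaving out 1 library gave 0 to 312 genes; the 312 came from edgeR without siCXCR4 replicate 2, and limma gave 2 there. By edgeR it was 5 without siNC replicate 1, 20 without siNC replicate 2, 3 without siCXCR4 replicate 3 and 0 without siCXCR4 replicate 1. The causes were not tested. A lone siNC library was assumed to vary like the siCXCR4 libraries. With the longest coding transcript as length, the mean log2 level ratio was -0.0077 for Jak2 to Jak1 and -0.59 for Stat5b to Stat5a. Stat5b was then the higher in 0 of 5 libraries, so that order turned round. Jak2 was above Jak1 in 2 of 5 libraries, so these were level.

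The replicate block gave 0 calls, with Jak1 at 0.12 (adjusted p = 0.924 by limma). No distinct siNC library shared the number of siCXCR4 replicate 3, so that library added nothing to this contrast. The fit thus compared replicates 1 and 2 of each group only, with the same Jak1 value as limma without siCXCR4 replicate 3. The samples share only a number: same-numbered deviations correlated at -0.04 for replicate 1 and -0.11 for replicate 2. The deviations of 2 siNC libraries mirror each other, so each correlation has the opposite sign with the other siNC library. These values therefore cannot show whether a number marks a shared batch.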
